A study of Rattus norvegicus with 15 samples.

Results

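Acetyl-CoA carboxylase (ACC) and the genes that set the level and the action of its product, malonyl-CoA, were followed in the livers of rats given an ACC inhibitor. The genes were the ACC isoforms (Acaca and Acacb), the malonyl-CoA decarboxylase (Mlycd), the ACC partner Mid1ip1 and its relative Thrsp, and the malonyl-CoA-sensitive carnitine palmitoyltransferase of liver (Cpt1a). With them went 3 subunits of the AMP-activated protein kinase (Prkaa1, Prkaa2 and Prkab1) and its upstream kinase Stk11. They were chosen by name, as every probe set whose annotated symbol, current or former, was 1 of these 10. The rule uses no measured value, but the genes were picked with earlier results of these data known. This gave 18 probe sets of the 31099 on the array. A probe set was kept for the main test where at least 5 of the 15 arrays read it higher than 6.10, the median log2 value of the data set. This kept 13 of the 18, which covered 9 of the 10 genes. All 3 probe sets of Stk11 and 2 of the 3 of Prkaa1 lay below that filter.

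The rats were male Sprague Dawley animals from Charles River, 7 weeks old at the start, and every group, vehicle included, ate a high fat diet that drew 59% of its energy from fat. They were dosed by gavage once a day for 6 weeks with 0.5% methylcellulose (vehicle) or with PF-04923503, the ACC inhibitor, at 10 mg/kg or 30 mg/kg. Each group had 5 liver samples with 1 array each, on an Affymetrix 3′ expression array for the rat, which reads a transcript near its 3′ end with sets of short probes. No group on a standard diet is among these arrays, so every comparison is within high fat feeding. The labels number the samples in a group without stating that each is a separate animal, so each p-value here reflects sample-to-sample spread, which may be technical. Array medians lay between 6.08 and 6.12. Correlations between arrays over all probe sets lay between 0.989 and 0.996, and 0 pairs of arrays were identical. The arrays carry the high hepatocyte signal of liver, with albumin (Alb) at a mean log2 value of 15.36, and all 6 striated muscle markers lay below the filter.

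ACC adds a carboxyl group to acetyl-CoA and makes malonyl-CoA, the building block that fatty acid synthase extends into fatty acids. The ACC1 isoform, from Acaca, is cytosolic and is tied to lipogenesis, while ACC2, from Acacb, sits at the outer mitochondrial membrane, where malonyl-CoA blocks the carnitine palmitoyltransferase encoded by Cpt1a and so holds back fatty acid entry into mitochondria. Malonyl-CoA decarboxylase turns malonyl-CoA back into acetyl-CoA, AMP-activated protein kinase (AMPK) phosphorylates and inactivates both ACC isoforms, Stk11 (LKB1) activates AMPK, and the Mid1ip1 protein promotes polymerisation of ACC into its active filaments. Both lipogenic and insulin-driven transcription factors are known to act on the ACC genes and on Thrsp, also called Spot 14.

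Promoter sequences are shown for Acacb and Thrsp, whose means at 10 mg/kg were 2.01 and 1.88 times those of vehicle without passing the test (limma adjusted p = 0.0943 and 0.242), and for Mlycd, at 1.04 times vehicle (limma adjusted p = 0.839). Each is the stretch of 250 bases before the gene's annotated start in RefSeq on the GRCr8 build, 5′ to 3′ on the gene's own strand. Capitals mark CCAAT, the core of nuclear factor Y sites, and GGGCGG, the GC box of Sp1-type factors; a match on the opposite strand reads ATTGG or CCGCCC. Acacb lies at chr12:48138215-48138464 on the minus strand, Thrsp at chr1:161138965-161139214 on the minus strand and Mlycd at chr19:64356332-64356581 on the plus strand.
Acacb: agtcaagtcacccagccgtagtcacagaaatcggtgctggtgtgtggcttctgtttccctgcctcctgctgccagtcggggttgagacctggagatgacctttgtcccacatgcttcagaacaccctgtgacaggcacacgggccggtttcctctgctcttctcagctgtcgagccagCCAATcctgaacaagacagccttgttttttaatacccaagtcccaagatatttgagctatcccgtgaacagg
Thrsp: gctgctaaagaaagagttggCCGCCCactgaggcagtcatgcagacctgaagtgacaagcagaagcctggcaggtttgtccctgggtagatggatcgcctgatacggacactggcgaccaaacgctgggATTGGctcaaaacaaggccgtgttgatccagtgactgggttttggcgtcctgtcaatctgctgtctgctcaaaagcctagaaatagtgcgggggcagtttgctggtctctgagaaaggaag
Mlycd: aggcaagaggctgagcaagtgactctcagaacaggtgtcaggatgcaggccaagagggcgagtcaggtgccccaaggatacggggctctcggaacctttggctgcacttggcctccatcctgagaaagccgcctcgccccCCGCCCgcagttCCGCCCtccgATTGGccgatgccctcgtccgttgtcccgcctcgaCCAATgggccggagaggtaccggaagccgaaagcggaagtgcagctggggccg

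Of the 10 genes, 9 had an entry in this promoter table. Acaca had none and was not searched. The Acacb stretch holds 1 CCAAT, 72 to 68 bases before the start, and no GGGCGG. Thrsp has ATTGG at 121 to 117 bases and CCGCCC at 230 to 225 bases before its start. In Mlycd there are 2 matches to CCAAT (88 to 84 bases, on the opposite strand, and 53 to 49 bases) and 2 to GGGCGG, both on the opposite strand (110 to 105 and 98 to 93 bases). Searched on both strands, CCAAT was found in 4 of the 9 promoters (Acacb, Mlycd, Thrsp and Stk11) and in 34.0% of the 33469 promoters of that length in the table. GGGCGG was in 5 of the 9 (Mlycd, Mid1ip1, Thrsp, Prkaa1 and Prkaa2) and in 30.5% of all promoters. The E-box CACGTG, found in 5.59% of all promoters, and the sterol response element TCACNCCAC, found in 0.974%, were in 0 of the 9; these letters are absent from this window only. The motifs CCAAT and GGGCGG share no bases in the 3 stretches printed. CCAAT is thus present in the promoters of Acacb and Thrsp and in that of Mlycd.

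On the brightest probe set of each gene, the mean values of both ACC isoforms at either dose were 1.90 to 2.01 times those of vehicle, while the other Acaca probe set gave 1.52 and 1.56 times. Thrsp was at 1.88 times vehicle at 10 mg/kg and 1.41 times at 30 mg/kg. The decarboxylase, Cpt1a and the AMPK subunits had ratios to vehicle between 0.920 and 1.15. None of the 9 genes tested passed the threshold (limma, adjusted p under 0.05 over 9540 genes) in any of 4 comparisons. These were each dose against vehicle, the higher dose against the lower, and the mean of both doses against vehicle. The array as a whole gave few calls by the same rule: 0.105% of the 9540 genes at 10 mg/kg (10 genes), 0.0% at 30 mg/kg, 0.0% between the doses and 0.147% for both doses together (14 genes). Without adjustment, 1267 genes had p under 0.05 at 10 mg/kg, 1535 at 30 mg/kg, 555 between the doses and 1687 for both doses. The comparisons with vehicle share the same 5 vehicle arrays and are not independent of each other.

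**Figure D1:**
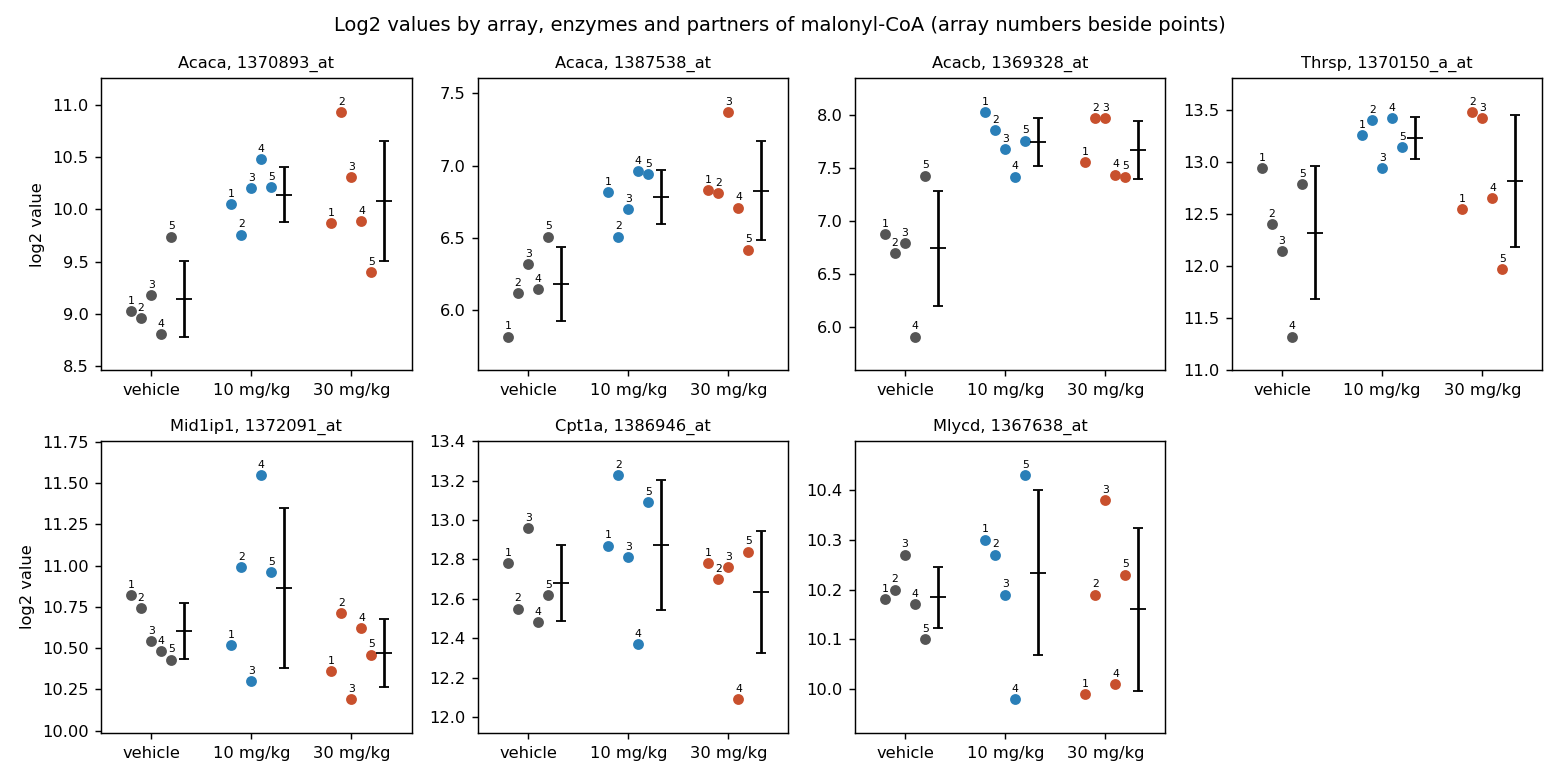
Log2 value of each array (points, array number beside each) for both probe sets of Acaca and the brightest probe set of Acacb, Thrsp, Mid1ip1, Cpt1a and Mlycd, in the vehicle, 10 mg/kg and 30 mg/kg groups; the bar shows the group mean ± SD (n = 5), and each panel has its own vertical range. For Acaca the 10 mg/kg arrays (9.76 to 10.48) all lie above the vehicle arrays (8.81 to 9.74), while Mlycd stays between 9.98 and 10.43 in every group.

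Acaca was read by 2 probe sets. On the brighter, 1370893_at, the vehicle arrays 1 to 5 gave log2 values of 9.03, 8.96, 9.18, 8.81 and 9.74 (mean 9.14 ± 0.36, SD, n = 5). At 10 mg/kg they were 10.05, 9.76, 10.20, 10.48 and 10.21 (10.14 ± 0.26), and at 30 mg/kg 9.87, 10.93, 10.31, 9.89 and 9.40 (10.08 ± 0.57). All 5 arrays at 10 mg/kg lay above every vehicle array, as did 4 of 5 at 30 mg/kg, where array 5 lay among the vehicle values. Vehicle array 5 was the highest of its group. Among the 9 genes Acaca alone had no overlap: its 10 mg/kg and vehicle values were apart, as were those of 2.44% of all 9540 genes. No gene of the 9 was free of overlap at 30 mg/kg, between doses or for both doses together, where 3.21%, 0.943% and 0.608% of all genes were.

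The mean of Acaca was 1.99-fold that of vehicle at 10 mg/kg (95% confidence interval 1.40 to 2.84; limma adjusted p = 0.122) and had rank 66 by p among 9540 genes. At 30 mg/kg it was 1.91-fold (1.34 to 2.72; limma adjusted p = 0.135, rank 101). For both doses the ratio was 1.95 (1.44 to 2.65; limma adjusted p = 0.069, rank 45). Between doses the ratio of 30 mg/kg over 10 mg/kg was 0.958, with an interval of 0.672 to 1.37 (limma adjusted p = 0.992). These adjusted values turn on single arrays. Without 30 mg/kg array 2 the 10 mg/kg ratio, still 1.99, had limma adjusted p = 0.0489. For both doses Acaca passed without vehicle array 5 (2.16-fold, limma adjusted p = 0.032) or without 30 mg/kg array 5 (2.07-fold, limma adjusted p = 0.0293). Other omissions raised the adjusted p: with 1 array left out it ranged from 0.0489 to 0.268 at 10 mg/kg, from 0.0695 to 0.261 at 30 mg/kg and from 0.0293 to 0.174 for both doses (limma).

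The other Acaca probe set, 1387538_at, lies close to the filter and also had higher means at both doses, with smaller differences. Its vehicle values were 5.82, 6.12, 6.32, 6.15 and 6.51 (6.18 ± 0.26). The 10 mg/kg values were 6.82, 6.51, 6.70, 6.96 and 6.94 (6.79 ± 0.18) and those at 30 mg/kg 6.83, 6.81, 7.37, 6.71 and 6.42 (6.83 ± 0.34). The 10 mg/kg group did not overlap vehicle here either, although the nearest values of the groups both round to 6.51. Its ratio to vehicle was 1.52 at 10 mg/kg (1.21 to 1.91; limma over all filtered probe sets, adjusted p = 0.168) and 1.56 at 30 mg/kg (1.24 to 1.97; limma over all filtered probe sets, adjusted p = 0.105). Within an array, the brighter minus the dimmer probe set was 2.96 ± 0.25 in vehicle, 3.35 ± 0.14 at 10 mg/kg and 3.25 ± 0.49 at 30 mg/kg. The estimated size of the Acaca difference thus varied with the probe set. Whether the 2 probe sets differed beyond their spread was not tested.

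Acacb, the isoform at mitochondria, was read by 1 probe set, 1369328_at. Vehicle arrays 1 to 5 gave log2 values of 6.88, 6.70, 6.79, 5.91 and 7.43 (6.74 ± 0.54, SD, n = 5). The 10 mg/kg arrays gave 8.03, 7.86, 7.68, 7.42 and 7.76 (7.75 ± 0.23), and the 30 mg/kg arrays 7.56, 7.97, 7.97, 7.44 and 7.42 (7.67 ± 0.28). At each dose 4 of 5 arrays lay above all vehicle arrays. The exceptions were 10 mg/kg array 4 and 30 mg/kg array 5, both at 7.42 and just under vehicle array 5. Vehicle array 4, at 5.91, was the lowest of all.

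The Acacb ratio to vehicle was 2.01 at 10 mg/kg (1.46 to 2.76; limma adjusted p = 0.0943), the value ranked 30 by p among 9540 genes. At 30 mg/kg it was 1.90 (1.38 to 2.62; limma adjusted p = 0.121, rank 49), and for both doses 1.96 (1.48 to 2.58; limma adjusted p = 0.0525, rank 20). The ratio of 30 mg/kg over 10 mg/kg was 0.947, with an interval of 0.689 to 1.30 (limma adjusted p = 0.982). The call of Acacb also turns on single arrays and, for both doses, on the processing. Without vehicle array 5 Acacb was 2.27-fold vehicle at 10 mg/kg (limma adjusted p = 0.0286) and 2.20-fold for both doses (limma adjusted p = 0.0162). The value for both doses passed as well without 30 mg/kg array 5 (2.00-fold, limma adjusted p = 0.0394), under a stricter filter (limma adjusted p = 0.048) and after quantile normalization (limma adjusted p = 0.0482). Without vehicle array 4, the lowest, the log2 difference at 10 mg/kg was 0.799 instead of 1.01 (limma adjusted p = 0.152). With 1 array left out, limma adjusted p ranged from 0.0286 to 0.191 at 10 mg/kg, from 0.0576 to 0.243 at 30 mg/kg and from 0.0162 to 0.122 for both doses.

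The ratio of the isoforms was compared inside each array as Acacb minus Acaca on the log2 scale, which cancels anything that scales a whole array. This value was -2.40 ± 0.29 in vehicle, -2.39 ± 0.46 at 10 mg/kg and -2.41 ± 0.36 at 30 mg/kg. The offset itself compares probes and is not a ratio of transcript levels. The difference from vehicle was 0.01 at 10 mg/kg (exact two-sided permutation test over 252 splits, p = 0.976) and -0.01 at 30 mg/kg (exact permutation p = 0.968), each with an adjusted p of 0.976 over 12 such tests. With the mean of both Acaca probe sets in place of the brighter, the differences from vehicle were 0.208 and 0.139 (exact permutation tests, adjusted p = 0.655 and 0.794). No unequal change of the isoforms was detected. With 252 splits and 12 tests, a single difference could not pass the adjustment even if 2 groups were fully apart. A change as large as these SDs of 0.29 to 0.46 could therefore have been missed.

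Livers are mixtures of cells, and in bulk RNA fewer cells of a type and less RNA per cell cannot be told apart. Hepatocyte markers (8 of 8 above the filter) had an average log2 value of 14.01 to 14.16 in vehicle, 14.05 to 14.18 at 10 mg/kg and 14.07 to 14.13 at 30 mg/kg. Markers of Kupffer cells and other macrophages (9 on the array of 11 listed, all 9 above the filter) averaged 9.03 to 9.58 in vehicle, 8.55 to 9.23 at 10 mg/kg and 8.44 to 9.55 at 30 mg/kg. Their group means were 9.27 in vehicle and 8.86 and 8.89 in the treated groups, and the groups overlapped. Stellate markers (8 of 9 above the filter) averaged 7.47 to 7.68 in vehicle, 7.21 to 7.42 at 10 mg/kg and 7.23 to 7.81 at 30 mg/kg, so vehicle and 10 mg/kg did not overlap. Of all single genes 2.44% were free of overlap in that comparison, and no such share was counted for averages of markers. Endothelial markers (6 on the array of 8 listed) averaged 8.51 to 8.75, 8.29 to 8.63 and 8.40 to 8.65. Adipocytes also express both isoforms and Thrsp. Of 5 adipocyte markers on the array Adipoq, Plin1, Lep and Fabp4 were below the filter and only Cfd was above it. Their average was 5.28 to 5.47 in vehicle, 5.19 to 5.39 at 10 mg/kg and 5.26 to 5.40 at 30 mg/kg. Striated muscle, another site of Acacb expression, had 0 of 6 markers above the filter, with averages of 4.15 to 4.30, 4.19 to 4.26 and 4.26 to 4.32. Of the rest, cholangiocyte markers (1 of 4 on the array above the filter) averaged between 5.71 and 6.34 over all arrays, and leukocyte markers (2 of 5) between 5.46 and 6.11. Erythroid markers (2 of 2) averaged 10.89 to 12.07 in vehicle (mean 11.37), 10.43 to 11.59 at 10 mg/kg (mean 10.79) and 10.58 to 11.71 at 30 mg/kg (mean 11.07), with overlapping groups. The part of these marker shifts in the values of the ACC isoforms was not tested.

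Thrsp, a small nuclear protein induced in lipogenic states, was read by 3 probe sets, all above the filter. The brightest, 1370150_a_at, gave log2 values of 12.94, 12.40, 12.14, 11.32 and 12.79 in vehicle arrays 1 to 5 (12.32 ± 0.64, SD, n = 5). Values at 10 mg/kg were 13.26, 13.40, 12.94, 13.42 and 13.14 (13.23 ± 0.20), and at 30 mg/kg 12.55, 13.48, 13.42, 12.65 and 11.97 (12.82 ± 0.64). The 10 mg/kg arrays were tightly grouped, with 4 of 5 above all vehicle arrays. The 30 mg/kg arrays were split, with arrays 2 and 3 at 13.48 and 13.42 and arrays 1, 4 and 5 inside the vehicle range. As for both Acaca and Acacb, vehicle array 4 and 30 mg/kg array 5 were each the lowest of their group.

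Thrsp was 1.88-fold vehicle at 10 mg/kg (1.20 to 2.95; limma adjusted p = 0.242) and 1.41-fold at 30 mg/kg (0.899 to 2.21; limma adjusted p = 0.44). The ratio of 30 mg/kg over 10 mg/kg was 0.749 (0.478 to 1.18; limma adjusted p = 0.884). A lower value at the higher dose was therefore not separated from the spread. The other probe sets gave the same order of groups. Probe set 1371400_at had log2 differences from vehicle of 0.89 at 10 mg/kg and 0.52 at 30 mg/kg, and 1387852_at of 1.04 and 0.60.

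Mid1ip1, the paralog of Thrsp that promotes ACC polymerisation, did not show the same order of groups. Its probe set 1372091_at gave 10.82, 10.74, 10.54, 10.48 and 10.43 in vehicle (10.60 ± 0.17). Treated arrays gave 10.52, 10.99, 10.30, 11.55 and 10.96 at 10 mg/kg (10.87 ± 0.48) and 10.36, 10.71, 10.19, 10.62 and 10.46 at 30 mg/kg (10.47 ± 0.21). The groups overlapped, and the 10 mg/kg group was spread by array 4, its highest, and array 3, its lowest. Against vehicle the ratio was 1.20 at 10 mg/kg (0.915 to 1.57; limma adjusted p = 0.566) and 0.911 at 30 mg/kg (0.694 to 1.19; limma adjusted p = 0.755). The ratio of 30 mg/kg over 10 mg/kg was 0.759 (0.579 to 0.995; limma adjusted p = 0.851). This was the only value of the 9 genes with an unadjusted p under 0.05 between doses, where 5.82% of all genes had one. Thrsp minus Mid1ip1 within an array was 1.72 ± 0.58 in vehicle, 2.37 ± 0.35 at 10 mg/kg and 2.35 ± 0.67 at 30 mg/kg. Its difference from vehicle was 0.65 at the lower dose (exact permutation test, p = 0.0476, adjusted p = 0.19) and 0.63 at the higher (exact permutation p = 0.175, adjusted p = 0.419).

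Mlycd, which removes malonyl-CoA, had nearly the same value in all groups. Its probe set 1367638_at gave 10.18, 10.20, 10.27, 10.17 and 10.10 in vehicle (10.19 ± 0.06, SD, n = 5). The treated values were 10.30, 10.27, 10.19, 9.98 and 10.43 at 10 mg/kg (10.24 ± 0.17) and 9.99, 10.19, 10.38, 10.01 and 10.23 at 30 mg/kg (10.16 ± 0.16). The 5 vehicle arrays lay inside the range of either treated group. The ratio to vehicle was 1.04 at 10 mg/kg (0.913 to 1.17; limma adjusted p = 0.839) and 0.983 at 30 mg/kg (0.867 to 1.11; limma adjusted p = 0.91), and that of 30 mg/kg over 10 mg/kg had limma adjusted p = 0.918.

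Cpt1a, the transferase that malonyl-CoA inhibits, was read by 2 probe sets. The brighter, 1386946_at, gave 12.78, 12.55, 12.96, 12.48 and 12.62 in vehicle (12.68 ± 0.19). With the inhibitor it gave 12.87, 13.23, 12.81, 12.37 and 13.09 at 10 mg/kg (12.87 ± 0.33) and 12.78, 12.70, 12.76, 12.09 and 12.84 at 30 mg/kg (12.64 ± 0.31). The groups overlapped, and array 4 was the lowest in each of the 3 groups. Equal numbers are not known to tie arrays of different groups to each other. The ratio to vehicle was 1.15 at 10 mg/kg (0.901 to 1.46; limma adjusted p = 0.636) and 0.973 at 30 mg/kg (0.765 to 1.24; limma adjusted p = 0.925). Higher over lower dose, it was 0.848 (0.667 to 1.08; limma adjusted p = 0.884). The dimmer probe set, 1367836_at, had means of 11.38 ± 0.22, 11.63 ± 0.46 and 11.25 ± 0.33, with log2 differences from vehicle of 0.25 and -0.13, in the same directions as the brighter. Cpt1a minus Acaca within an array was 3.53 ± 0.38 in vehicle, 2.73 ± 0.57 at 10 mg/kg and 2.56 ± 0.65 at 30 mg/kg. The differences from vehicle were -0.80 and -0.97, each with p = 0.0238 by the exact permutation test and adjusted p = 0.143. The lower ratio of Cpt1a to Acaca did not pass after adjustment. With 252 splits and 12 tests no difference could pass on its own, even with the groups fully apart.

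**Figure D2:**
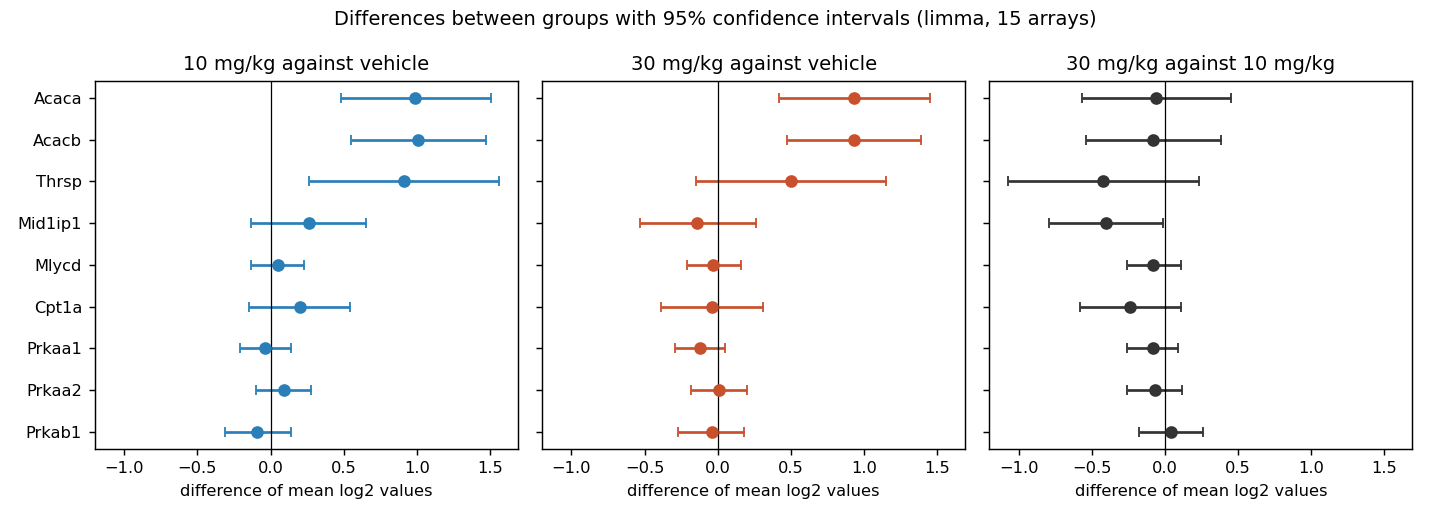
Difference of mean log2 values (points) with 95% confidence intervals (lines) from limma on 15 arrays, for the 9 genes above the filter, at 10 mg/kg against vehicle, 30 mg/kg against vehicle and 30 mg/kg against 10 mg/kg. The intervals of Acaca (0.48 to 1.51 and 0.42 to 1.45) and Acacb (0.55 to 1.47 and 0.47 to 1.39) lie right of 0 at each dose against vehicle. Those of Mlycd and the AMPK subunits include 0 and are narrow. These intervals are not adjusted for the number of genes.

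AMPK is a complex of a catalytic alpha, a scaffold beta and a nucleotide-sensing gamma subunit. The catalytic alpha1 gene Prkaa1 was above the filter on 1 of its 3 probe sets, 1375970_at. Its values were 8.31, 8.33, 8.25, 8.27 and 8.31 in vehicle (8.30 ± 0.03, SD, n = 5). They were 8.21, 8.14, 8.22, 8.49 and 8.24 at 10 mg/kg (8.26 ± 0.13) and 8.20, 8.48, 8.13, 8.08 and 7.99 at 30 mg/kg (8.18 ± 0.18). In the treated groups 4 of 5 arrays lay below all vehicle arrays and the remaining array, 10 mg/kg array 4 or 30 mg/kg array 2, lay above them all. Its ratio to vehicle was 0.976 at 10 mg/kg (0.865 to 1.10; limma adjusted p = 0.885) and 0.920 at 30 mg/kg (0.816 to 1.04; limma adjusted p = 0.489). The probe sets below the filter gave means of 5.30 ± 0.29, 5.18 ± 0.28 and 5.18 ± 0.18 (1369104_at) and of 3.41 ± 0.06, 3.48 ± 0.07 and 3.53 ± 0.04 (1394921_at) in vehicle, 10 mg/kg and 30 mg/kg. They did not share a direction.

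For the alpha2 gene Prkaa2 (1369654_at) the values were 9.97, 9.93, 10.12, 10.15 and 9.89 in vehicle (10.01 ± 0.12). Treated livers gave 10.16, 9.94, 10.08, 10.24 and 10.07 at 10 mg/kg (10.10 ± 0.11) and 9.97, 10.05, 10.30, 9.75 and 10.06 at 30 mg/kg (10.02 ± 0.20). The groups overlapped, with a ratio to vehicle of 1.06 at 10 mg/kg (0.931 to 1.21; limma adjusted p = 0.706) and 1.01 at 30 mg/kg (0.884 to 1.15; limma adjusted p = 0.956). Prkaa2 minus Prkaa1 within an array differed from vehicle by 0.12 and 0.13 at the rising doses (exact permutation tests, adjusted p = 0.405 and 0.746). The scaffold beta1 gene Prkab1 (1386945_a_at) gave 10.86, 10.64, 10.88, 10.50 and 10.32 in vehicle (10.64 ± 0.24). In treated livers it gave 10.58, 10.73, 10.34, 10.72 and 10.38 at 10 mg/kg (10.55 ± 0.18) and 10.54, 10.58, 10.63, 10.58 and 10.64 at 30 mg/kg (10.59 ± 0.04). All 30 mg/kg values of Prkab1 lay inside the vehicle range. The ratio to vehicle was 0.941 (0.807 to 1.10; limma adjusted p = 0.754) and 0.969 (0.831 to 1.13; limma adjusted p = 0.867).

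Stk11, the AMPK kinase, was below the filter on all 3 probe sets, at the 23.4 to 29.5 percentile of mean level among all probe sets other than controls. Means in vehicle, 10 mg/kg and 30 mg/kg were 4.88 ± 0.14, 4.99 ± 0.08 and 4.98 ± 0.21 on 1375364_at. They were 4.70 ± 0.03, 4.74 ± 0.12 and 4.81 ± 0.06 on 1381830_x_at, and 4.60 ± 0.05, 4.70 ± 0.11 and 4.63 ± 0.07 on 1375238_at. In a fit of every probe set without a filter, the largest Stk11 log2 difference from vehicle was 0.11 (1375364_at at 10 mg/kg, limma adjusted p = 0.764, and 1381830_x_at at 30 mg/kg, limma adjusted p = 0.402).

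**Figure D3:**
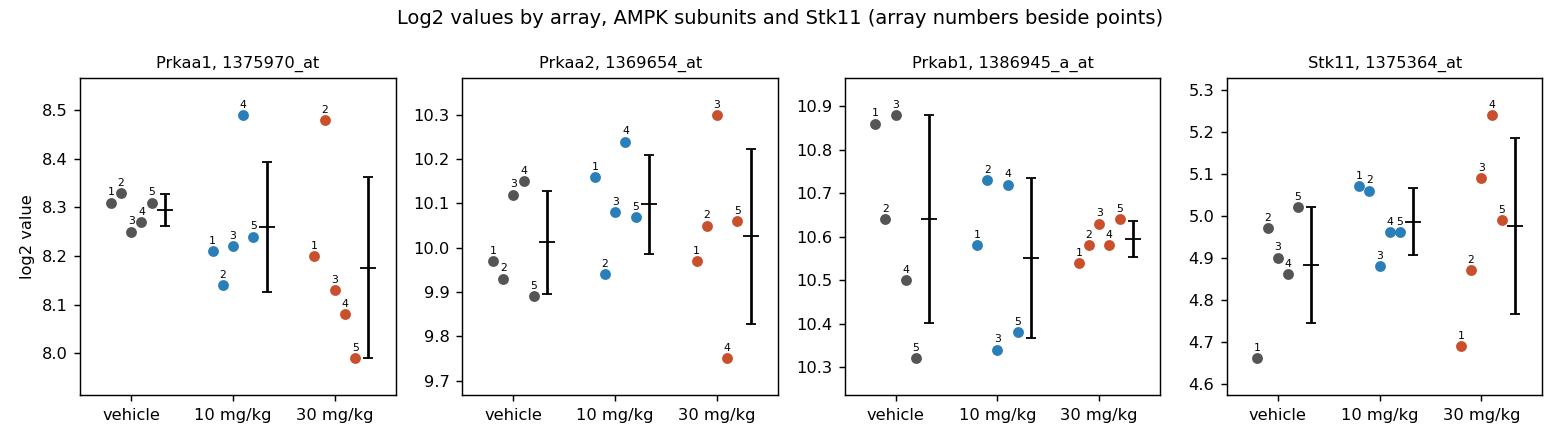
Log2 value of each array (points, array number beside each) for Prkaa1, Prkaa2, Prkab1 and Stk11, 1 probe set each, in the vehicle, 10 mg/kg and 30 mg/kg groups; the bar shows the group mean ± SD (n = 5), and each panel has its own vertical range. Prkaa1 in vehicle spans only 8.25 to 8.33, and the groups overlap in all 4 panels.

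Counted over the 9 genes tested, 7 had a higher and 2 a lower mean at 10 mg/kg than in vehicle, and 4 a higher and 5 a lower mean at 30 mg/kg. Their median difference in log2 value was 0.20 at the lower dose and -0.03 at the higher, against -0.02 and -0.03 over all 9540 genes. An unadjusted p under 0.05 with a higher mean was reached by 3 genes at 10 mg/kg (Acaca, Acacb and Thrsp), against 4.49% of all genes, and by 2 at 30 mg/kg (Acaca and Acacb), against 5.27%. For the mean of both doses these were again 3, against 5.3%. From 10 to 30 mg/kg, 8 of the 9 had the lower mean at the higher dose, with Prkab1 the exception. The median difference of the 9 was -0.08, against -0.01 over all genes. Only Mid1ip1 had an unadjusted p under 0.05 (limma), and the 9 genes were read on the same arrays. The share of all genes with a lower mean at the higher dose was not counted.

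To see which genes varied together inside the groups, the deviation of each array from its group mean was compared with that of Acaca over the 15 arrays (100000 permutations within groups, adjusted over 8 relations). Prkaa1 had the highest correlation with Acaca, with Pearson r = 0.77 (permutation p = 0.00276, adjusted p = 0.0221) and Spearman rho = 0.57 (permutation p = 0.056, adjusted p = 0.166). Without vehicle array 5 and 30 mg/kg array 2, the farthest from the Acaca median, r was 0.69. With the mean of each gene's filtered probe sets in place of the brightest, it was 0.641 (permutation adjusted p = 0.16), so the call rests on which probe sets are read. The arrays with the highest Prkaa1 deviation, 30 mg/kg array 2 (0.30) and 10 mg/kg array 4 (0.23), were also the highest for Acaca in their groups (0.85 and 0.34).

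Thrsp had r = 0.69 (permutation adjusted p = 0.0749) and rho = 0.61 (permutation adjusted p = 0.166), with r = 0.58 without those arrays. Acacb had r = 0.56 (permutation adjusted p = 0.106) and rho = 0.54 (permutation adjusted p = 0.166), and r = 0.29 without them. Leaving out the arrays farthest from the Acaca median narrows the range of Acaca, which can by itself lower r. The other 5 genes had r between -0.26 (Prkab1) and 0.17 (Prkaa2), with Cpt1a at -0.16, Mid1ip1 at 0.13 and Mlycd at -0.06. The lowest permutation adjusted p of these was 0.582.

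**Figure D4:**
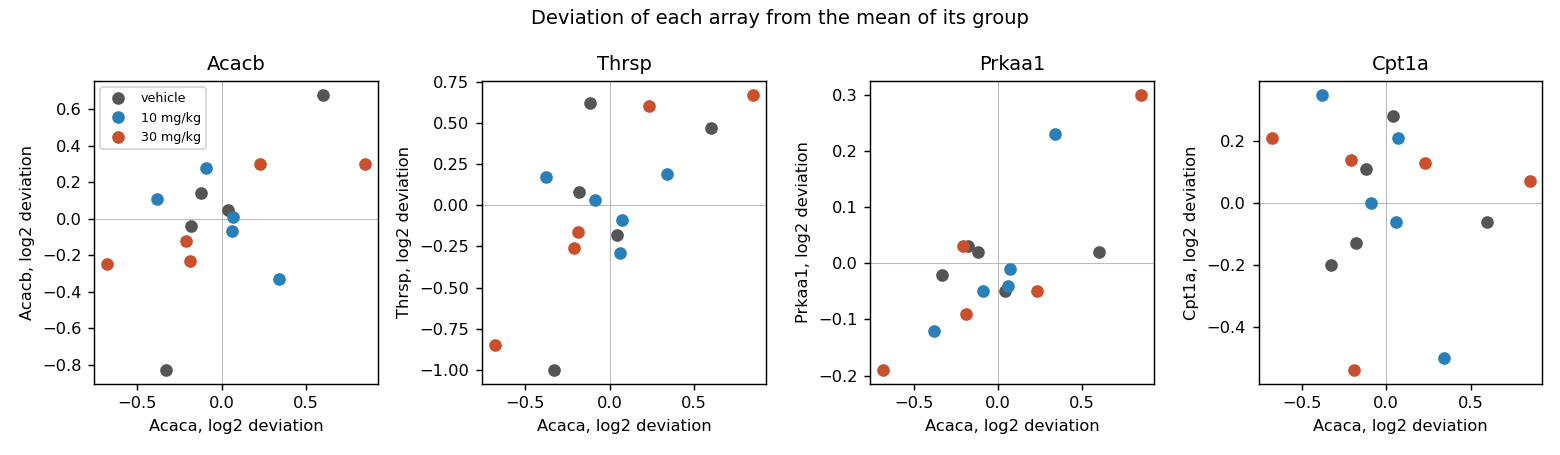
Deviation of each array from the mean of its group (log2 units) for Acaca on the horizontal axis and Acacb, Thrsp, Prkaa1 or Cpt1a on the vertical, 1 point per array, coloured by group, with lines at 0. Thrsp and Prkaa1 lean upward with Acaca (r = 0.69 and 0.77), Cpt1a does not (r = -0.16), and 30 mg/kg array 2 and vehicle array 5 are the points farthest right.

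Genes whose log2 values followed Acaca, Acacb, Thrsp or Cpt1a most closely over the 15 arrays are given as a description. These values hold the differences between groups and share arrays, and carry no test. For Acaca the 4 nearest were Fasn (r = 0.974, rho = 0.968), the fatty acid synthase that uses malonyl-CoA, Tkfc (r = 0.952), a kinase of fructose breakdown, Scd (r = 0.952), the stearoyl-CoA desaturase, and Pdk1 (r = 0.947), a kinase of pyruvate dehydrogenase. With group means removed, r was 0.949 for Fasn and between 0.878 and 0.949 over the 4 genes. Acacb was followed most closely by Fads2 (r = 0.922), a fatty acid desaturase, Ddhd1 (r = 0.92), a phospholipase, Dpt (r = 0.918), an extracellular matrix protein, and Acsl5 (r = 0.916), an acyl-CoA synthetase, with r between 0.784 and 0.875 once group means were removed. For Thrsp these were Rnf130 (r = 0.916), Tsnax (r = 0.901), Abhd6 (r = 0.895), a monoacylglycerol lipase, and Acsl5 again (r = 0.891), or 0.842 to 0.91 without group means. Cpt1a was followed by other genes: Rab30 (r = 0.892), Slc25a42 (r = 0.85), a mitochondrial carrier of coenzyme A, Spp2 (r = 0.846) and Fzd4 (r = 0.828), or 0.828 to 0.891 without group means. The lists of Acaca and Cpt1a share no gene, and Acsl5 is the only gene on more than 1 list.

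Other genes of the pathway were grouped into 5 lists, and none of their tested members was called in any of the 4 comparisons (limma, adjusted p under 0.05). Of 12 genes that make acetyl-CoA or malonyl-CoA or use malonyl-CoA, 10 were tested. At the lower dose 6 had an unadjusted p under 0.05 with a higher mean, as had 4.49% of all genes, and 3 did at the higher dose, as did 5.27%. Medians of the differences in log2 value were 0.27 and 0.14, against -0.02 and -0.03 over all genes. The brightest of these were Elovl5, a fatty acid elongase that uses malonyl-CoA, Acly, which splits citrate into acetyl-CoA, and Fasn. Fasn was at a log2 value of 10.54 ± 0.75 in vehicle, 12.05 ± 0.31 at 10 mg/kg and 11.83 ± 0.89 at 30 mg/kg. Its mean was 2.85-fold (limma adjusted p = 0.149) and 2.44-fold (limma adjusted p = 0.174) that of vehicle. Vehicle and 10 mg/kg values of Fasn did not overlap, as in 2.44% of all genes. Acly was at 11.98 ± 0.58, 13.14 ± 0.36 and 12.89 ± 0.54, which is 2.23-fold and 1.88-fold (limma adjusted p = 0.132 and 0.174). Elovl5 differed less, at 13.25 ± 0.20, 13.59 ± 0.07 and 13.50 ± 0.12 (1.26-fold and 1.19-fold, limma adjusted p = 0.134 and 0.206).

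The carnitine shuttle and fatty acid activation list had 9 of 9 genes tested, 2 with an unadjusted p under 0.05 and a higher mean at 10 mg/kg (4.49% of all genes) and 1 at 30 mg/kg (5.27%). The medians were 0.18 and -0.02. Acsl5 was at 11.82 ± 0.40 in vehicle, 12.57 ± 0.13 at 10 mg/kg and 12.30 ± 0.23 at 30 mg/kg. Its vehicle and 10 mg/kg values did not overlap, as in 2.44% of all genes (1.69-fold; limma adjusted p = 0.0919), and it was at 1.40-fold at 30 mg/kg (limma adjusted p = 0.193). The main liver acyl-CoA synthetase Acsl1 was at 13.75 ± 0.03, 13.82 ± 0.04 and 13.78 ± 0.03, and the peroxisomal carnitine octanoyltransferase Crot at 12.62 ± 0.22, 12.87 ± 0.03 and 12.60 ± 0.34 (limma adjusted p = 0.452 at 10 mg/kg).

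Of 19 further AMPK subunits and regulators, 14 were tested. Differences in log2 value ran from -0.12 to 0.28 at the lower dose (median 0.0) and from -0.17 to 0.19 at the higher (median -0.06). A single gene had an unadjusted p under 0.05, with a higher mean, at 10 mg/kg (4.49% of all genes) and 0 at 30 mg/kg (5.27%), close to the share over all genes. The LKB1 partner Stradb was at 10.26 ± 0.13, 10.26 ± 0.07 and 10.19 ± 0.09, the AMPK phosphatase Ppm1a at 9.76 ± 0.09, 9.76 ± 0.08 and 9.70 ± 0.08, and the folliculin partner Fnip2 at 9.62 ± 0.42, 9.83 ± 0.27 and 9.56 ± 0.21.

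Biotin enzymes were listed since ACC is 1 of the biotin-dependent carboxylases. All 7 were tested, with medians of -0.07 and -0.04, 1 gene with an unadjusted p under 0.05 and a lower mean at 10 mg/kg (8.79% of all genes) and 0 at 30 mg/kg (10.8%). Pyruvate carboxylase (Pc) was at 11.58 ± 0.12, 11.60 ± 0.07 and 11.54 ± 0.13, the propionyl-CoA carboxylase subunit Pccb at 11.03 ± 0.10, 11.12 ± 0.10 and 11.08 ± 0.05, and the methylcrotonyl-CoA carboxylase subunit Mccc2 at 10.62 ± 0.08, 10.50 ± 0.10 and 10.51 ± 0.08. Over this list the differences ran from -0.15 to 0.17 at the lower dose and from -0.13 to 0.13 at the higher.

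Transcription factors and cofactors known to act on ACC genes (12 of 12 tested) had medians of 0.10 and 0.04. Those with an unadjusted p under 0.05 were 2 genes higher in mean at 10 mg/kg (4.49% of all genes), and 1 higher and 1 lower at 30 mg/kg (5.27% and 10.8%). Srebf1, the sterol regulatory element factor that drives lipogenic genes, was at 11.50 ± 0.45 in vehicle, 11.81 ± 0.18 at 10 mg/kg and 11.52 ± 0.34 at 30 mg/kg. Its ratio to vehicle was 1.24 (0.929 to 1.66; limma adjusted p = 0.522) and 1.01 (0.756 to 1.35; limma adjusted p = 0.979). The liver X receptor Nr1h3 was at 10.66 ± 0.04, 10.64 ± 0.08 and 10.59 ± 0.13, and Mlx, the partner of the carbohydrate response factor, at 9.53 ± 0.08, 9.72 ± 0.16 and 9.68 ± 0.14 (1.14-fold at 10 mg/kg; limma adjusted p = 0.331). The arrays measure transcripts and not the processing or activity of these proteins, of AMPK or of ACC.

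**Figure D5:**
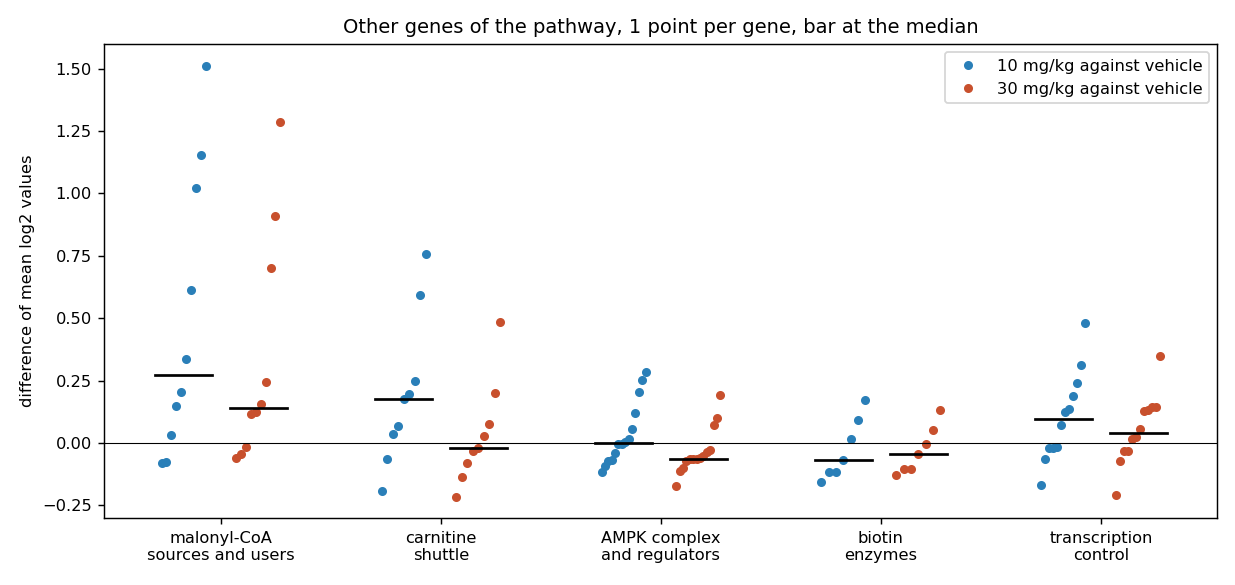
Difference of mean log2 values against vehicle for the tested genes of each list (1 point per gene, bar at the median), at 10 mg/kg and at 30 mg/kg. Points above 0.6 at 10 mg/kg are found among malonyl-CoA sources and users (up to 1.51) and in the carnitine shuttle (0.76), while the AMPK and biotin enzyme lists stay between -0.17 and 0.28.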

How the data were processed

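Liver RNA from 15 samples was measured on 1-colour Affymetrix rat arrays. The authors deposited log2 values per probe set; the submitters' processing notes name RMA, GCRMA 2.12.1 and limma 2.14.7 without saying which made the values, and the values were used as given. Probe sets were named from the platform annotation: of 31099, 57 are controls, 20826 carry 1 symbol, 436 several and 9780 none, and 20758 matched a current gene entry. Probe sets were kept where the fifth highest of 15 values exceeded the median of all values (6.10); 15939 passed. Each gene was represented by its brightest kept probe set, which gave 9540 genes.

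Group means over all 15 arrays were fitted with limma 3.58.1 (lmFit and eBayes) in R 4.3.3, with Benjamini-Hochberg adjustment over 9540 genes, and a gene was called at adjusted p under 0.05. Intervals are at the 95% level and unadjusted. Differences within an array were compared by exact two-sided permutation, and correlations by 100000 permutations within groups (Python 3.11.15, scipy 1.17.1). Each group has 5 arrays, which limits the precision of its mean. The fit was tested on simulated data.

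The 10 genes, the pathway lists, the markers and the rule for named genes were chosen with earlier results of these data known. That rule names all 10 genes and the called and the 3 brightest tested genes of each list. It also names, for each of Acaca, Acacb, Thrsp and Cpt1a, the 4 most correlated genes outside the 10. Promoters came from a RefSeq table on GRCr8. Alternatives were the probe set filter, the probe set per gene, quantile normalization, centring, eBayes with trend, the groups fitted, replicate number as a block and each array left out; a fit of every probe set without a filter was added after seeing the data.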

Additional observations from a re-analysis of the deposited data

Results flagged for a closer look

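In the 30 mg/kg group, Cpt1a was lowest on array 4 at a log2 value of 12.09, apart from the other 4 arrays at 12.70 to 12.84. The gap to the nearest array was 0.81 of the group's range, above Dixon's critical value for 5 samples (0.71). This was 1 of 30 groups examined (10 genes in 3 groups), and chance alone exceeds that value in about 1 group in 20. Without this array the Cpt1a log2 difference at 30 mg/kg against vehicle was 0.0958, against -0.04 with it.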

How the results depend on the processing

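Of 351 values of log2 differences of the 9 genes under other settings, 347 kept their direction and side of the threshold, and of 540 with 1 array left out, 517 did. Direction could change only with the mean of probe sets, quantile normalization or centring. All remaining settings refitted the same values of each gene and could move only its adjusted p. Leaving out an array of a group outside the comparison likewise left the difference fixed. Many of these values therefore kept their direction by construction. Acacb for both doses passed under the stricter filter (adjusted p = 0.048, limma) and after quantile normalization (0.0482), where 1 of the 9 genes was called each time. The differences that reversed under other settings were Mlycd at 30 mg/kg (0.0208, quantile), Prkaa2 at 30 mg/kg (-0.00144, centred), Acacb minus Acaca at 30 mg/kg (0.139, mean of probe sets) and at 10 mg/kg (-0.000272, quantile). The correlation with Acaca turned for Mlycd (0.0301, mean of probe sets) and Prkab1 (0.0376, 2 arrays left out), and for Prkaa1 it no longer passed (0.641, mean of probe sets).

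With 1 array left out, the genes of the 9 called ranged from 0 to 1 at 10 mg/kg and 0 to 2 for both doses. Signs turned in these ranges: against vehicle at 30 mg/kg, Mlycd -0.0805 to 0.017, Cpt1a -0.0917 to 0.0958, Prkaa2 -0.0563 to 0.0821 and Prkab1 -0.126 to 0.0155; for both doses, Mlycd -0.0153 to 0.0444 and Mid1ip1 -0.022 to 0.135; between doses, Acaca -0.274 to 0.109 and Prkab1 -0.0102 to 0.0874. Within-array differences did so for Acacb minus Acaca (-0.114 to 0.179 at 10 mg/kg, -0.13 to 0.133 at 30 mg/kg, -0.184 to 0.121 between doses) and, between doses, Thrsp minus Mid1ip1 (-0.237 to 0.191), Cpt1a minus Acaca (-0.398 to 0.0202) and Prkaa2 minus Prkaa1 (-0.0709 to 0.0797).

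Over all genes, 10 were called at 10 mg/kg: 3 with no filter, 16 over all filtered probe sets, 0 over every probe set (2927 unadjusted), 0 to 26 with 1 array left out. At 30 mg/kg 0 became 10 over all filtered probe sets, 8 over every probe set and 0 to 5 with 1 left out; for both doses 14 became 25, 24 and 0 to 85. With replicate number as a block, limma called 0 genes at 10 mg/kg (1212 at unadjusted p under 0.05) and 3 for both doses. The numbers are not known to pair the samples. Deviations of same-numbered arrays correlated at -0.071 to 0.195 (15 pairs, median 0.049, 2 over 0.1). The median was -0.0115 for the 60 pairs of unequal number from different groups, and 3 of 15 arrays correlated best with their own number. These correlations cannot settle whether equal numbers share a block. The causes of these changes were not tested. Stk11, below the filter, was not among the 9 genes.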
